A study of Mus musculus with 12 samples.

Results

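Nuclear factor κB (NF-κB) is the transcription factor that drives much of the inflammatory gene expression of macrophages (Mφ), and the transcripts described here are those of its subunits and of the genes it induces to restrain itself. The set holds 10 genes, chosen by name and by role, of 24445 gene symbols counted in Mφ sorted from mouse hearts. They are the subunits Nfkb1, Nfkb2, Rela, Rel and Relb, the inhibitor of κB (IκB) family members Nfkbia, Nfkbiz and Bcl3, and the ubiquitin enzymes Tnfaip3 and Birc3. All 10 passed the filter on low counts, which left 14608 genes for testing.

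Hearts of adult male C57BL6/J mice were compared. Control mice (Ct, n = 4) carried a pump with saline, mice with early concentric hypertrophy (ECH, n = 4) had been infused for 14 days with 30 mg/kg/day of isoproterenol (iso), which stimulates β-adrenergic receptors, and mice in heart failure (HF, n = 4) had received the same dose for 28 days. For Ct mice the sources used here do not give how long each was infused. Hearts were digested with collagenase, CD45+ cells were enriched on magnetic beads, and CD11b+ cells that carried CD14 and CD64 were sorted, with 1 library per mouse. Total counts lay between 88466559 and 111180291 per library. Levels are given as CPM (counts scaled to a common library total) with TMM factors, which corrects library sizes for differences in composition.

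NF-κB subunits bind DNA as dimers, with RelA and p50 (made from Nfkb1) forming the classical pair and RelB and p52 (made from Nfkb2) the pair of the slower alternative pathway. In resting cells IκBα, the product of Nfkbia, holds the classical dimers in the cytoplasm until a kinase complex marks it for degradation, and the freed dimers then induce Nfkbia, Tnfaip3 and other brakes, so that the transcripts of these inhibitors are commonly read as targets of the pathway. In cardiac Mφ this pathway controls cytokines and chemokines that act on the injured heart. The levels given here are of RNA only, and in sorted bulk samples fewer cells of a type and less RNA per cell cannot be told apart.

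The loop by which NF-κB induces its own brakes runs through κB sites in the promoters of these genes. RefSeq promoters (GRCm38.p6, the build of the files, 250 bases before each transcription start) were held for 7 of the 10 members, Nfkb2, Rela, Rel, Nfkbia, Bcl3, Tnfaip3 and Birc3. The classical 10-base κB consensus was searched on both strands, with overlapping matches merged into 1 site. These 7 genes had 10 promoter entries, of which 6 held it, in the 4 genes Nfkb2, Rel, Nfkbia and Tnfaip3, beside 7.25% of 32851 mouse promoter entries. Nfkb2 entered with 3 promoters, each with a site. In the other gene lists described below the share was also above that of all promoters. It ran from 14.3% (kinases and adaptors) to 42.3% (genes that NF-κB is known to induce), so a site was not particular to the members. Rela, Bcl3 and Birc3 had no match in the window. The Nfkbia and Rel promoters are shown whole because both genes had lower mean levels in iso-treated mice than in Ct, and the sites are in capitals.
Nfkbia, chr12:55492648-55492897, minus strand: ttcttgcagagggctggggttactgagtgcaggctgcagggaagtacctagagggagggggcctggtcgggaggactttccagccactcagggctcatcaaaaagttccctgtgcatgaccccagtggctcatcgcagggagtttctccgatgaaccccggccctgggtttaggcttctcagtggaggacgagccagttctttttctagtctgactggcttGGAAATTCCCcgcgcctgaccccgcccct
Rel, chr11:23770970-23771219, minus strand: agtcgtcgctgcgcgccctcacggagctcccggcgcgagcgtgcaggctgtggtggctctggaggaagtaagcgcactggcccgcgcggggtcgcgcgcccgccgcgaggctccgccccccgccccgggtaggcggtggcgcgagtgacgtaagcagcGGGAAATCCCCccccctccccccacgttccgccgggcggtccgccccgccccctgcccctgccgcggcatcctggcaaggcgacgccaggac

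The site of Nfkbia began 29 bases before the start and that of Rel 92 bases before it. Tnfaip3 and Nfkb2 each held 2 sites in 1 promoter, as did 0.396% of all promoter entries. These sites are shown with 9 flanking bases on each side, because Tnfaip3 had lower means than Ct after iso and Nfkb2 had means near that of Ct.
Tnfaip3, 125 bases before the start, chr10:19015517-19015544, minus strand: actcacgcgGGGACACCCCggggcggga
Tnfaip3, 12 bases before the start, chr10:19015404-19015431, minus strand: atttccatcGGAAATCCCCctgttggca
Nfkb2, 39 bases before the start, chr19:46304689-46304717, plus strand: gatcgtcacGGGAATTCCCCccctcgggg
Nfkb2, 11 bases before the start, chr19:46304717-46304744, plus strand: gggccgaaaGGGGCTTTCCcggctggag

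These matches are a description of the sequence. Of the 4 genes with a site, Nfkbia, Tnfaip3 and Rel had lower means than Ct in both iso-treated groups, and Nfkb2 had a mean near that of Ct in both.

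Transcript levels of the members differed widely. In Ct Mφ, per kilobase of exon, Nfkbia stood first (690 ± 264 CPM per kb, mean ± SD, n = 4), followed by Nfkbiz (258 ± 42.6), and the ranges of these 2 genes did not overlap. Rela, the most abundant subunit (67.6 ± 7.25), and Tnfaip3 (54.4 ± 15.8) came next with overlapping ranges. Birc3 (26.4 ± 5.33), Bcl3 (23.5 ± 6.87), Nfkb2 (16.3 ± 3.70) and Relb (12.4 ± 2.14 CPM per kb) followed, each overlapping its neighbour in this order. Rel (5.93 ± 0.579) and Nfkb1 (4.71 ± 1.36 CPM per kb) were the lowest and overlapped each other. The order of mean levels per kb was the same in ECH, and in HF Bcl3 (26.7 ± 6.07) stood above Birc3 (19.6 ± 2.72 CPM per kb).

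**Figure D1:**
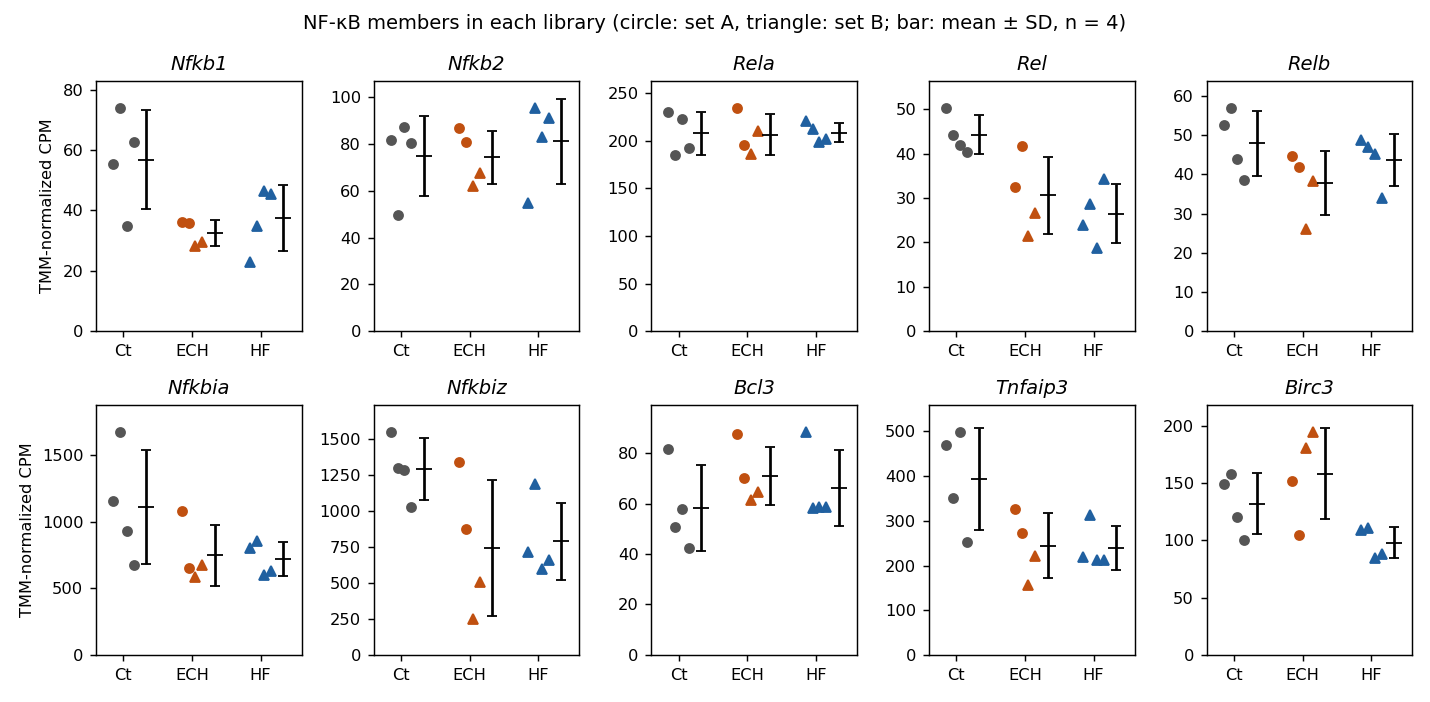
Level of each of the 10 members in each library, in TMM-normalized CPM on a linear axis that starts at 0, for Ct, ECH and HF Mφ. Each point is 1 mouse, the bars give mean ± SD (n = 4), circles and triangles mark the library sets A and B inferred from library numbers. Rela stayed between 185 and 235 CPM in all 12 libraries, whereas the lowest Ct level of Rel (40.5 CPM) was above the highest HF level (34.3 CPM).

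Iso infusion for 14 days was compared with Ct first. No member was called between ECH and Ct (0 of 10 with both an FDR below 0.05 and a 2-fold difference, the thresholds of the study, in edgeR's quasi-likelihood fit of all 12 libraries, in which 0.356% of all genes were called), and DESeq2, the edgeR likelihood ratio test and limma-voom called 0 members as well. At an unadjusted p under 0.05, 4 members had lower levels in ECH, namely Nfkb1, Rel, Nfkbia and Tnfaip3, against 5.89% of all genes, and 0 had higher ones, against 6.03% of all genes. The median log2 fold change of the 10 members was -0.44, beside 0.01 for all genes. This median was -0.28 without Ct mouse 2, -0.30 without ECH mouse 3, and -0.19 (beside -0.02 for all genes) among the libraries of set A alone, a set of libraries described after the 3 comparisons. No member had all its ECH levels under all its Ct levels, as 3.64% of all genes did.

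Iso infusion for 28 days was compared with Ct next. No member was called between HF and Ct (0 of 10, with 0.377% of all genes called), and the other 3 tools called 0 members too. At an unadjusted p under 0.05, 4 members had lower levels in HF, namely Nfkb1, Rel, Nfkbia and Tnfaip3, against 8.72% of all genes, and 0 had higher ones, against 7.35% of all genes. The median log2 fold change of the members was -0.52, beside -0.01 for all genes, and 1 member (Rel) had no overlap between the groups, as 4.45% of all genes did in this direction. Without Ct mouse 2 the median was -0.34, and once the library set was a covariate it turned to 0.03, beside -0.04 for all genes. Both comparisons use the same 4 Ct libraries, so they are not independent of each other.

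HF was then compared with ECH, with which it shares no library. No member was called (0 of 10, with 0% of all genes called by edgeR's quasi-likelihood test and 47 genes, none a member, by DESeq2), and the other 2 tools called 0 members. Only Birc3 had an unadjusted p under 0.05, with the lower level in HF, against 5.17% of all genes, and 0 members had a higher level at this p, against 2.81%. Also, no member was without overlap in this direction, against 3.56% of all genes. The median log2 fold change of the members between HF and ECH was -0.01, and it was 0.26 within set B, 0.16 without ECH mouse 1 and -0.16 without ECH mouse 3. Over all genes the calls depended on the library sets described next, with 272 genes called once the set was a covariate and 370 within set B, and 0 members among either.

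**Figure D2:**
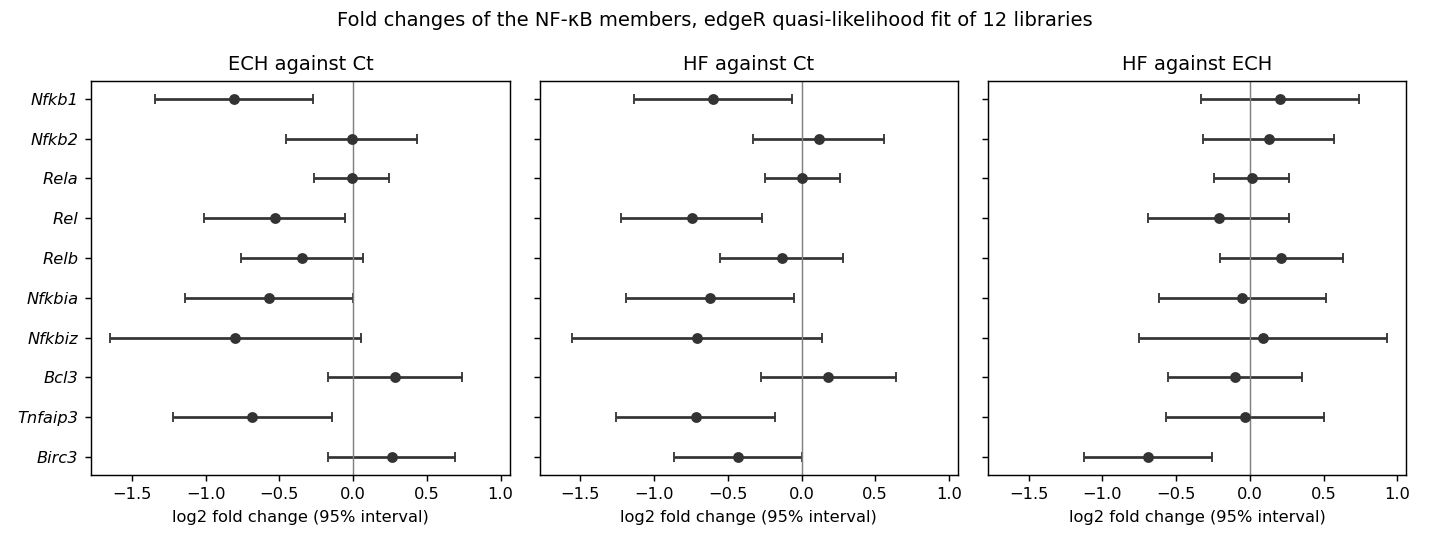
Log2 fold changes of the 10 members in 3 comparisons, from the edgeR quasi-likelihood fit of all 12 libraries, on 1 linear axis of log2 units. Points are estimates and bars are 95% intervals, and none of these passed the FDR threshold. Nfkb1, Rel, Nfkbia and Tnfaip3 lie to the left of 0 against Ct in both groups, Rela lies near 0 (-0.01 and 0.01), and Birc3 is the member farthest from 0 between HF and ECH (-0.69).

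The order in which the libraries were numbered has to be read beside these values. The library numbers in the labels fall into 2 runs, and the sets inferred from them hold ECH mice 1 and 2 with all Ct mice (set A) and ECH mice 3 and 4 with all HF mice (set B). These sets are an inference, stated by no source. Within set A, where 2 ECH mice were compared with 4 Ct mice, 0 members had an unadjusted p under 0.05, against 4 with all libraries, and 7 of 10 kept the sign they had. HF and Ct share no set, so for that comparison the set and the group cannot be told apart.

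Rela (chr19:5637483-5648130, plus strand, gene bounds here are of GRCm38, GENCODE M21) encodes RelA (p65), the main transactivating subunit of the classical pathway. Its level was 231, 185, 223 and 192 CPM in the 4 Ct mice, 235, 195, 186 and 211 CPM in the 4 ECH mice, and 221, 212, 198 and 202 CPM in the 4 HF mice. The 3 groups covered the same range, and no mouse stood apart. The log2 fold change was -0.01 for ECH against Ct (95% interval -0.26 to 0.25) and 0.01 for HF against Ct (-0.25 to 0.26).

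Nfkb1 (chr3:135584655-135691547, minus strand), which encodes p105 and the p50 subunit cut from it, was read at 55.4, 74.0, 35.0 and 62.8 CPM in Ct, at 36.3, 35.9, 28.3 and 29.4 CPM in ECH, and at 23.1, 34.8, 46.5 and 45.3 CPM in HF. Ct mouse 3 lay at the level of the ECH mice, and 3 of 4 Ct mice were above every iso-treated mouse. The mean was 56.8 ± 16.4 CPM in Ct, 32.5 ± 4.24 in ECH and 37.4 ± 10.9 in HF (n = 4 each). The log2 fold change was -0.81 (SE 0.25, edgeR FDR = 0.203) for ECH against Ct and -0.60 (SE 0.25, FDR = 0.264) for HF against Ct. Within set A it was -0.66 for ECH, with the set as a covariate it was -0.28 for HF against Ct, and without Ct library 2 and HF library 1 it was also -0.28 for HF.

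Rel (chr11:23736847-23770970, minus strand) encodes c-Rel, a subunit typical of lymphoid and myeloid cells. Its level was 50.3, 44.3, 42.0 and 40.5 CPM in Ct, 32.5, 41.7, 21.6 and 26.7 CPM in ECH, and 23.98, 28.7, 18.7 and 34.3 CPM in HF. All 4 HF mice lay under all 4 Ct mice, whereas ECH mouse 2 lay inside the Ct range. For HF against Ct, Rel had the lowest FDR of the members, with a log2 fold change of -0.74 (SE 0.22, edgeR FDR = 0.151). In ECH its value was -0.53 (SE 0.22, FDR = 0.364), and Nfkb1 and Tnfaip3 had lower FDRs there. By DESeq2 the FDR for HF against Ct was 0.0382, with the fold change still under 2. The FDR of this comparison lay between 0.0382 and 0.917 over 22 alternatives, all with a lower level in HF. Read through ECH, with the library set as a covariate, the difference between HF and Ct was -0.12. Within set A the difference between ECH and Ct was -0.26.

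Nfkb2 (chr19:46304320-46312385, plus strand), the source of p100 and p52 in the alternative pathway, stood at 81.9, 49.8, 87.2 and 80.6 CPM in Ct, at 86.8, 80.8, 62.2 and 67.5 CPM in ECH, and at 54.9, 95.5, 83.0 and 91.3 CPM in HF. The groups overlapped, with the lowest level in Ct mouse 2, the next in HF mouse 1, and HF mice 2 and 4 above every Ct and ECH mouse. Its log2 fold change was -0.01 for ECH (95% interval -0.45 to 0.43) and 0.12 for HF against Ct (-0.33 to 0.56). Without Ct mouse 2 the value for HF was -0.036, and with the set as a covariate it was 0.49 (edgeR FDR = 0.559). On the other strand, exons of Nfkb2 share 531 bases with the noncoding gene AC114539.1, whose symbol is absent from the count tables, and 299 bases with Psd, and the sources used here do not give the strand setting of the counting, so that reads of these genes in those stretches may not have been separated.

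Relb (chr7:19606217-19629438, minus strand), whose product pairs with p52, was at 52.5, 57.0, 43.9 and 38.5 CPM in Ct, at 44.7, 41.8, 26.1 and 38.2 CPM in ECH, and at 48.8, 46.9, 45.2 and 34.0 CPM in HF. Only ECH mouse 3 and HF mouse 4 lay well under the lowest Ct mouse. On the log2 scale the difference was -0.35 (SE 0.19, edgeR FDR = 0.510) for ECH and -0.13 (SE 0.19, FDR = 0.785) for HF against Ct, and for ECH it was -0.16 within set A and -0.21 without ECH mouse 3. For HF it turned to 0.29 with the set as a covariate. Among the 5 subunits, then, Nfkb1 and Rel had the lower means after iso, Rela and Nfkb2 lay near their Ct means, and Relb lay between these pairs in ECH.

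Nfkbia (chr12:55489410-55492647, minus strand) encodes IκBα, the inhibitor that ends each round of NF-κB activity. It was counted at 1156, 1678, 933 and 678 CPM in Ct, at 1083, 653, 584 and 672 CPM in ECH, and at 801, 858, 600 and 630 CPM in HF. Ct mice were the most spread (a CV of 38.3%), with Ct mouse 4 inside the range of both iso-treated groups and Ct mouse 2 above every other mouse. The mean was 1111 ± 425 CPM in Ct, 748 ± 227 in ECH and 722 ± 127 in HF (n = 4 each). In the fit the log2 fold change was -0.57 (SE 0.26, edgeR FDR = 0.418) for ECH and -0.62 (SE 0.26, FDR = 0.277) for HF against Ct. Without Ct mouse 2 these values were -0.30 and -0.35. Within set A the value for ECH was -0.36, and with the set as a covariate that for HF against Ct was -0.15.

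Nfkbiz (chr16:55811375-55838899, minus strand) encodes IκBζ, a nuclear cofactor that is itself induced by NF-κB and is needed for its later targets. Its level was 1554, 1300, 1288 and 1030 CPM in Ct, 1340, 877, 248 and 510 CPM in ECH, and 715, 1187, 599 and 661 CPM in HF. ECH mouse 1 lay inside the Ct range, HF mouse 2 lay there as well, and ECH mice 3 and 4 lay under every HF mouse, so that the ECH group had a CV (SD as a share of the mean) of 63.7%. Fitted log2 fold changes were -0.80 (SE 0.39, edgeR FDR = 0.452) for ECH and -0.71 (SE 0.39, FDR = 0.403) for HF against Ct, and the value for ECH became -1.25 once ECH mouse 1 was left out, or -0.51 once ECH mouse 3 was.

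The split of Nfkbiz among ECH mice ran along the library sets. Within set A the log2 fold change of ECH against Ct was -0.23 (FDR = 0.951 by edgeR), and within set B that of HF against ECH was 1.06 (SE 0.37, edgeR FDR = 0.146), whereas with all libraries HF and ECH differed by 0.09. With the set as a covariate, HF against Ct turned to a higher level of Nfkbiz in HF (0.84, edgeR FDR = 0.419). The direction of Nfkbiz between HF and Ct thus depended on how the set was treated, and the part of the set in the result was not tested.

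**Figure D3:**
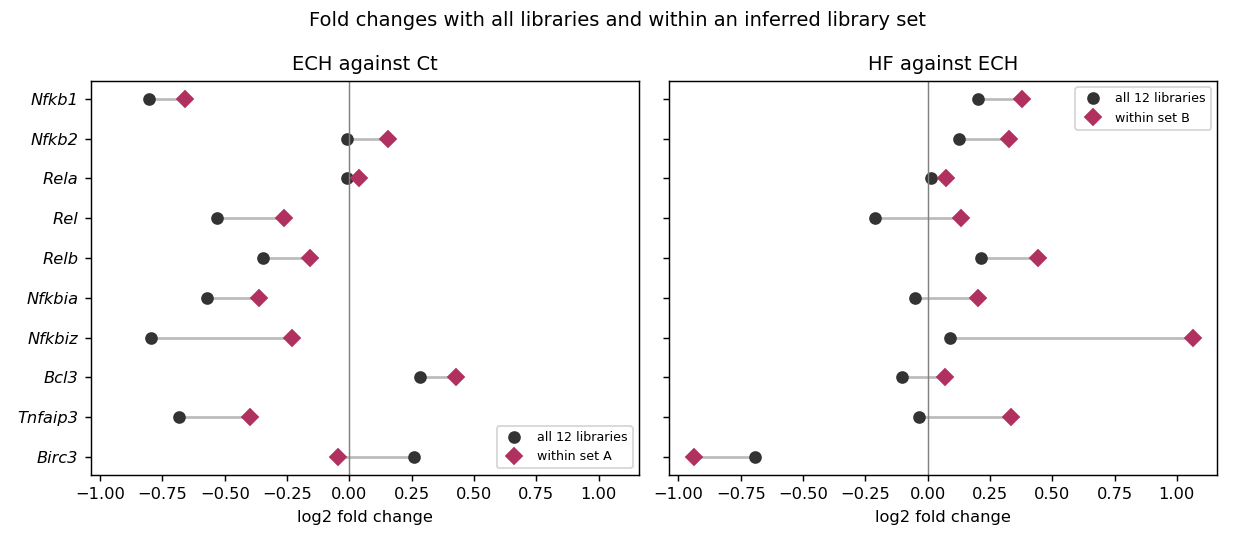
Log2 fold changes of the 10 members with all 12 libraries (circles) and within a library set inferred from the labels (diamonds), for ECH against Ct within set A (2 against 4 mice) and HF against ECH within set B (4 against 2 mice), in log2 units. Nfkbiz moved the most between the fits, from 0.09 to 1.06 for HF against ECH, and Birc3 went from -0.69 to -0.94.

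Bcl3 (chr7:19808462-19822770, minus strand), an IκB family member that binds p50 and p52 homodimers in the nucleus, stood at 81.8, 50.9, 58.0 and 42.2 CPM in Ct, at 87.5, 70.0, 61.4 and 64.7 CPM in ECH, and at 88.6, 58.3, 58.5 and 58.8 CPM in HF. Mouse 1 of each group had its highest level, and the groups overlapped. Its fold change on the log2 scale was 0.28 (SE 0.21, edgeR FDR = 0.649) for ECH and 0.18 (SE 0.21, FDR = 0.729) for HF against Ct. Single libraries moved these values, with ECH at 0.49 without Ct mouse 1, 0.16 without Ct mouse 4 and 0.17 without ECH mouse 1. For HF, leaving out Ct mouse 1 gave 0.39, Ct mouse 2 gave 0.12, Ct mouse 4 gave 0.056 and HF mouse 1 gave 0.0083, and leaving out Ct library 2 and HF library 1 together gave -0.059. Within set A, ECH was at 0.43, and with the set as a covariate HF was at 0.50. An antisense gene, Gm16175, shares 161 exon bases with Bcl3. Of the 3 IκB family members, Nfkbia and Nfkbiz had lower means in both iso-treated groups than in Ct and Bcl3 had slightly higher ones, none past the threshold. For ECH, Bcl3 stayed higher than in Ct over 23 alternatives (0.16 to 0.49). For HF the value fell to near 0 without HF mouse 1.

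Tnfaip3 (chr10:19000910-19015657, minus strand) encodes A20, an enzyme that edits ubiquitin chains on signalling proteins upstream of NF-κB and so shuts the response down. Its level was 470, 350, 500 and 253 CPM in Ct, 327, 273, 157 and 222 CPM in ECH, and 220, 313, 213 and 211 CPM in HF. Ct mouse 4 lay inside the range of both iso-treated groups, and the other 3 Ct mice were above every iso-treated mouse. The mean was 393 ± 114 CPM in Ct, 245 ± 72.5 in ECH and 239 ± 49.1 in HF (n = 4 each). The log2 fold change was -0.68 (SE 0.25, edgeR FDR = 0.290) for ECH and -0.72 (SE 0.25, FDR = 0.204) for HF against Ct, and -0.40 for ECH within set A. With the set as a covariate, HF against Ct was at -0.055 (edgeR FDR = 0.973).

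Birc3 (chr9:7848699-7873186, minus strand) encodes cIAP2, a ubiquitin ligase of the TNF receptor complex. Its level was 150, 158, 120 and 100.2 CPM in Ct, 152, 105, 180 and 195 CPM in ECH, and 109, 110.5, 84.3 and 88.1 CPM in HF. ECH mice 3 and 4 were above every other mouse, ECH mouse 2 lay under HF mice 1 and 2, and the other ECH mouse lay in the Ct range. HF against ECH gave a log2 fold change of -0.69 (SE 0.20, edgeR FDR = 0.534), the only member with an unadjusted p under 0.05 in this comparison. Within set B, where ECH mice 3 and 4 were compared with the 4 HF mice, it was -0.94 (SE 0.14, edgeR FDR = 0.0134), and with the set as a covariate -0.94 (FDR = 0.0298), both short of the minimum fold change of 2. The FDR lay between 0.0134 and 1 over 23 alternatives, all with the lower level in HF. Against Ct, Birc3 was at 0.26 in ECH (FDR = 0.657) and -0.43 in HF (FDR = 0.312) on the log2 scale, with -0.044 for ECH within set A and -0.98 for HF with the set as a covariate. The value for ECH was 0.14 without ECH mouse 4, 0.15 without Ct mouse 4 and 0.42 without ECH mouse 2. Birc2, its close paralogue and neighbour, was also lower in HF than in ECH (log2 fold change -0.57, SE 0.19, FDR = 0.541), and the sources used here do not say how reads shared by the paralogues were counted.

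Leaving out 1 library at a time moved the number of members under the unadjusted p of 0.05. Between ECH and Ct the number went from 4 to 2 without Ct mouse 1, to 1 without ECH mouse 3 and to 2 without ECH mouse 4. Between HF and Ct it went from 4 to 2 without Ct mouse 2, which also had the fewest counts. No member was called in any of these fits.

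**Figure D4:**
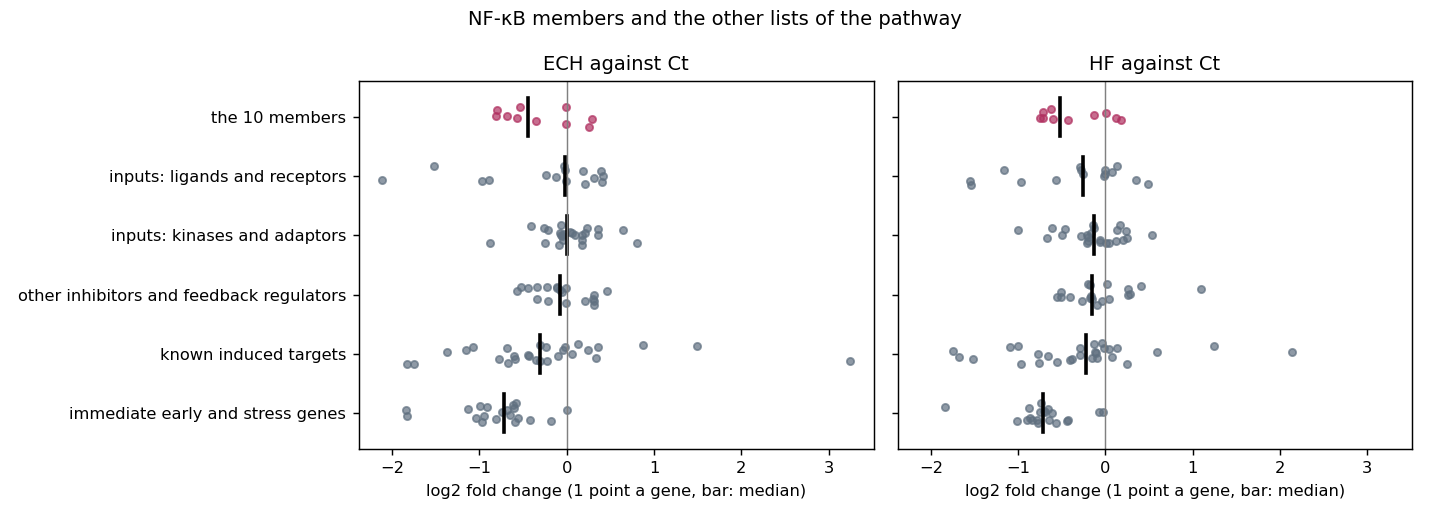
Log2 fold changes of the members and of 5 other lists of the pathway, 1 point per gene with the median as a bar, for ECH against Ct and HF against Ct. The median of the 10 members (-0.44 and -0.52) lies left of those of the kinases and adaptors (0.00 and -0.13), and the 20 immediate early and stress genes lie farthest left (-0.71 and -0.72). With the library set as a covariate the medians for HF against Ct are 0.03 for the members and -0.084 for the immediate early and stress genes.

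The genes around the members were read in the same fit, and the counts of each list at an unadjusted p under 0.05 stand beside the shares of all genes given above, which for higher levels were 6.03% in ECH and 7.35% in HF against Ct and for lower levels 5.89% and 8.72%. Among 15 ligands and receptors that feed the pathway, 1 gene, Cd40, was called, with the lower level in HF, where 0.377% of all genes were called, and 0 of 15 were called between ECH and Ct by edgeR's quasi-likelihood test. At an unadjusted p under 0.05, 1 of the 15 was higher (Tlr4, 0.42 on the log2 scale) and 4 were lower in ECH than in Ct (Cd40, Ltb at -2.11, Il1b at -0.89 and Tnfrsf13c at -1.52), and 0 were higher and 3 lower in HF than in Ct (Cd40, Ltb at -1.55 and Tnfrsf13c at -1.54). Ltb, Il1b, Tnfrsf13c and Tlr4 were named after their values were seen. CD40 is a receptor that activates the alternative pathway through NIK. Cd40 stood at 44.7, 44.6, 47.5 and 36.4 CPM in Ct, at 18.7, 18.4, 25.5 and 25.9 CPM in ECH, and at 16.5, 14.7, 24.1 and 21.8 CPM in HF. Every iso-treated mouse was under every Ct mouse. The log2 fold change was -1.17 for HF (SE 0.20, edgeR FDR = 0.0253) and -0.97 for ECH against Ct (SE 0.20, FDR = 0.0521). The call for HF was lost without Ct mouse 1 (edgeR FDR = 0.0846), HF mouse 1 (0.0662), HF mouse 2 (0.0715) or HF mouse 4 (0.0564), and without both Ct library 2 and HF library 1 (0.0757), and the log2 fold change lay between -1.64 and -1.06 over 22 alternatives. Within set A it was -1.23 for ECH against Ct. B cells also carry CD40, and the summed level of 5 B cell markers (Cd79a, Cd79b, Ms4a1, Ebf1, Pax5) was 76.5 to 355 CPM in Ct, 31.8 to 65.2 in ECH and 40.6 to 68.8 CPM in HF, with 4 of 5 markers lower at an unadjusted p under 0.05 in both comparisons with Ct. The sort took CD11b+ cells with CD14 and CD64, and these B cell markers were still counted. The part of B cells in the levels of Cd40, Ltb and Tnfrsf13c was not tested.

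The ligand gene Tnf, singled out after its values were seen, was at 141, 136, 101 and 79.1 CPM in Ct, at 258, 187, 50.6 and 102 CPM in ECH, and at 159, 242, 112 and 130 CPM in HF. ECH mice 1 and 2 (set A) and HF mouse 2 were the highest, and ECH mice 3 and 4 (set B) lay under ECH mice 1 and 2. On the log2 scale Tnf differed by 0.39 (edgeR FDR = 0.759) for ECH and 0.49 (FDR = 0.598) for HF against Ct, neither past the threshold.

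Of 24 kinases and adaptors, none was called in any of the 3 comparisons by edgeR's quasi-likelihood test (0 of 24 in each). At an unadjusted p under 0.05, 2 had a higher and 1 a lower level in ECH than in Ct, and 1 had a higher and 4 a lower level in HF than in Ct. Irak2, an adaptor kinase of Toll-like and IL-1 receptors, had a mean of 90.7 ± 19.2 CPM in Ct, 75.5 ± 14.2 in ECH and 57.1 ± 2.36 in HF (log2 fold change -0.67 for HF against Ct, SE 0.17, edgeR FDR = 0.0984). All HF mice were under all Ct mice for Irak2. Ikbke, which encodes the kinase IKKε, had a mean of 13.4 ± 3.30 CPM in Ct, 23.4 ± 4.08 in ECH and 19.4 ± 2.70 in HF (0.80 for ECH against Ct, SE 0.21, FDR = 0.134). All ECH mice were above all Ct mice for Ikbke, and the share of all genes without overlap in this direction was not counted.

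The 19 other inhibitors and feedback regulators, IκB genes and partners of A20 among them, gave 0 calls by the same test in each comparison. In ECH against Ct, 3 had a higher and 0 a lower level at an unadjusted p under 0.05, and in HF against Ct 2 had a higher and 1 a lower level. Itch, a ubiquitin ligase that acts with A20, had a mean of 98.2 ± 17.9 CPM in Ct, 135 ± 14.2 in ECH and 99.1 ± 11.4 in HF (0.46 for ECH against Ct, SE 0.15, edgeR FDR = 0.237). Tnip3, an A20-binding inhibitor, was at 36.0 to 52.9 CPM in HF against 12.03 to 30.5 in Ct and 12.95 to 40.2 in ECH (1.10 for HF against Ct, SE 0.37, FDR = 0.190). Its ECH levels split along the library sets, with 36.55 and 40.2 CPM in mice 1 and 2 (set A). ECH mice 3 and 4 (set B) were at 16.9 and 12.95 CPM. The median log2 fold change of this list was -0.08 for ECH and -0.15 for HF against Ct, nearer to that of all genes than that of the 10 members was.

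Of 28 genes that NF-κB is known to induce, 0 were called by edgeR's quasi-likelihood test in each comparison. At an unadjusted p under 0.05, 3 were higher and 4 lower in ECH than in Ct, and 1 was higher and 5 lower in HF than in Ct, with medians of -0.30 and -0.22, which turned to 0.17 and 0.31 with the set as a covariate. Ccr7, a chemokine receptor of dendritic and lymphoid cells, was at 48.6 to 164 CPM in Ct, 17.02 to 44.0 in ECH and 27.2 to 47.0 in HF (-1.75 for ECH against Ct, SE 0.38, edgeR FDR = 0.0707). Il6, which encodes the cytokine IL-6, was at 9.71 to 62.8 CPM in Ct, 5.37 to 12.1 in ECH and 6.86 to 13.1 in HF (-1.83 for ECH against Ct, SE 0.48, FDR = 0.126). Levels of Ccr7 did not overlap between Ct and either iso-treated group, whereas the lowest Ct mouse for Il6 lay inside both iso-treated ranges. Within ECH, Ccr7 was at 44.0 and 42.35 CPM in mice 1 and 2 (set A) and at 17.02 and 20.7 CPM in mice 3 and 4 (set B).

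A further list holds 20 immediate early and stress genes, such as Fos, Jun and Egr1, which respond within minutes and are also induced when tissue is digested. None was called (0 of 20 in each comparison by edgeR's quasi-likelihood test), but 12 of 20 were lower at an unadjusted p under 0.05 in ECH than in Ct and 12 of 20 in HF than in Ct, with medians of -0.71 and -0.72, or -0.40 and -0.084 with the set as a covariate. Their summed level was 66840, 55480, 51990 and 50310 CPM in Ct, 52210, 36850, 22870 and 32380 CPM in ECH, and 42980, 43140, 25970 and 30720 CPM in HF. ECH mouse 3, with the lowest sum, also had the lowest Nfkbiz, Nfkbia and Tnfaip3 of the ECH mice, and ECH mouse 1, with the highest sum, also had the highest. The anti-proliferative gene Btg2 had a mean of 2880 ± 379 CPM in Ct, 1636 ± 512 in ECH and 1564 ± 372 in HF, and the immediate early gene Ier2 had 1887 ± 316, 1126 ± 357 and 1013 ± 268 CPM. Nfkbiz ranked the 4 mice of each group in the same order as the sum did, and Nfkbia did so in HF. Within Ct the order of the other 2 genes differed, with Nfkbia highest in mouse 2 (1678 CPM) and Tnfaip3 in mouse 3 (500 CPM). The list and Nfkbia, Nfkbiz and Tnfaip3 all had lower means in both iso-treated groups than in Ct, and the part of these genes in the result was not tested.

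**Figure D5:**
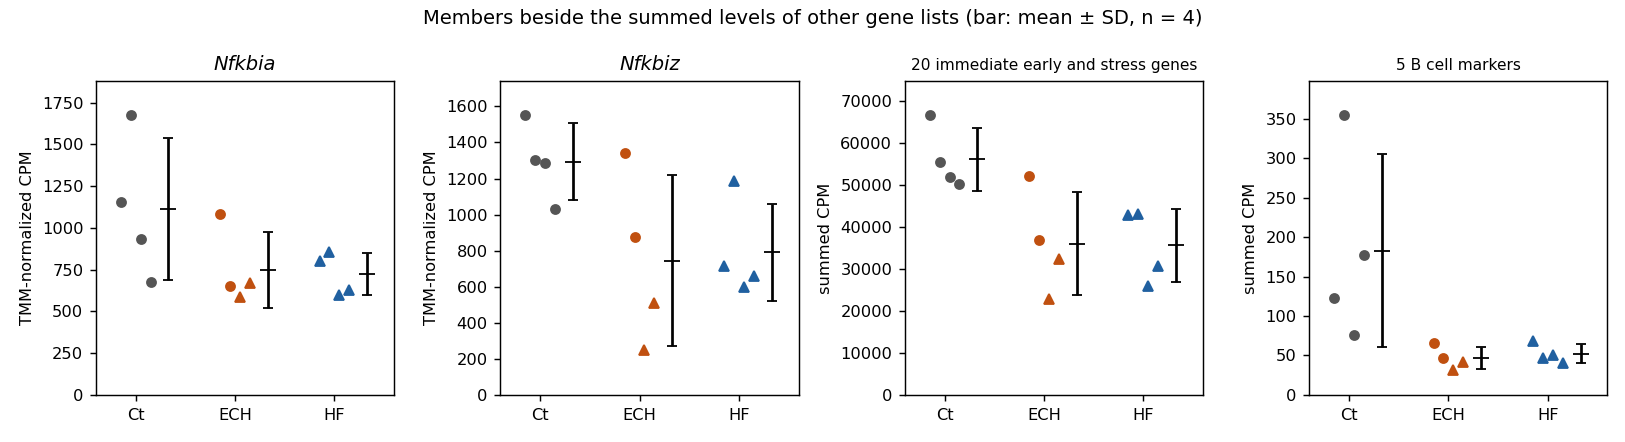
Levels of Nfkbia and Nfkbiz in each library (TMM-normalized CPM) beside the summed CPM of 20 immediate early and stress genes and of 5 B cell markers, on linear axes that start at 0. Points are mice, circles are set A, triangles are set B, and bars give mean ± SD (n = 4). ECH mouse 1 has the highest ECH level in all 4 panels and ECH mouse 3 the lowest, and both summed lists have their highest level in a Ct mouse (66840 and 355 CPM), with the immediate early sum of ECH mouse 1 inside the Ct range.

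The genes whose log2 CPM followed Nfkbia most closely over the 12 libraries were Sertad1 (Pearson r of 0.95), Eif1, Hes1, Batf and H3f3b (r of 0.93 to 0.94). Those that followed Tnfaip3 were Nr4a1 and Slc20a1 (r of 0.93), Icam1 (0.92), Csrnp1 (0.91) and Btg2 (0.90). Nr4a1 and Btg2 are on the list of immediate early genes and Icam1 on that of induced targets. These correlations describe 12 libraries that share the 3 groups and the 2 library sets.

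The sort was checked on its markers. Cd14 was at 1713 to 2993 CPM and Csf1r, the receptor for the Mφ growth factor, at 2620 to 5297 CPM over the 12 libraries, and Fcgr1, which encodes CD64, at 71.5 to 182 CPM. Of 8 Mφ markers, 0 were called by edgeR's quasi-likelihood test in either comparison with Ct, and 2 were higher and 0 lower at an unadjusted p under 0.05 in each. Itgam, which encodes the CD11b used in the sort, was at 223 to 559.5 CPM in Ct, 636 to 787 in ECH and 407 to 701.5 in HF. It was higher in every ECH mouse than in every Ct mouse, a pattern whose share over all genes was not counted. Mertk, a receptor for dying cells, was at 76.05 to 177 CPM in Ct, 174 to 496 in ECH and 91.6 to 144 in HF, and Cd68, a lysosomal protein, at 939.8 to 1049, 1024 to 1241 and 1206 to 1391 CPM. Adgre1, which encodes F4/80, was at 878 to 1356 CPM in Ct, 579 to 1320 in ECH and 1105 to 1257 in HF, and the chemokine receptor gene Cx3cr1 at 161.5 to 236, 23.9 to 221 and 141 to 177 CPM in these groups. The part of these differences in the results was not tested. Besides B cell markers, all 7 neutrophil markers and all 7 T and NK cell markers had lower levels in ECH and in HF than in Ct, 3 and 4 of them at an unadjusted p under 0.05 in ECH and 1 and 2 in HF. The summed level of neutrophil markers was 409 to 1688 CPM in Ct, 176 to 486 in ECH and 158 to 1356 in HF, and that of T and NK cell markers 16.1 to 89.2, 3.45 to 29.6 and 8.37 to 20.9 CPM. Neutrophils and lymphocytes express Nfkbia, Tnfaip3, Nfkb1 and Rel too. Their markers were counted although the sort took cells with CD11b, CD14 and CD64, and the part of these cells in the result was not tested.

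The markers of other cells of the heart were read in the same way. Markers of fibroblasts, cardiomyocytes and endothelial cells were counted although cells were enriched for CD45 and sorted on CD11b, CD14 and CD64. Of these markers 0 were called by edgeR's quasi-likelihood test in either comparison with Ct. All 5 fibroblast markers had higher levels in ECH and in HF than in Ct, 0 of them at an unadjusted p under 0.05, with sums of 26.5 to 170 CPM in Ct, 64.6 to 383 in ECH and 72.4 to 209.9 in HF. Of 5 markers of Ly6C-high monocytes, 2 were higher and 1 lower at this p in ECH, and 1 was higher and 1 lower in HF, with sums of 291 to 589 CPM in Ct, 508 to 687 in ECH and 539 to 903 in HF. All 6 cardiomyocyte markers had lower levels in HF than in Ct, 2 of them at this p, and 5 of 6 had lower levels in ECH, 0 at this p, with sums of 61.7 to 201 CPM in Ct, 63.6 to 136 in ECH and 49.2 to 86.1 in HF. Of 6 dendritic cell markers, 1 was higher and 1 lower in ECH and 2 were higher and 1 lower in HF, and of 6 endothelial markers 0 differed at this p in ECH and 1 was higher and 1 lower in HF. The lower dendritic cell marker was Ccr7 in both comparisons, a gene that also stands on the list of induced targets. The part of these cells in the result was not tested either. HF library 1 had the fewest genes detected (13600, against up to 15940), and without it and Ct library 2, a choice made after those numbers were seen, 0 members were called and 2 had an unadjusted p under 0.05 between HF and Ct.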

How the data were processed

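RNA of CD14+/CD64+ Mφ sorted from 12 mouse hearts was sequenced, 1 library per mouse, and groups were taken from the condition in the labels. The authors prepared cDNA with the SMART-Seq v4 kit, checked reads with FastQC, trimmed them with Trimmomatic, aligned them with TopHat2 to mm10 and counted them with featureCounts. The deposited files hold raw counts per gene symbol, without normalization. The sources used here give no versions, annotation or strand setting. No row lacked a gene name and no 2 libraries held identical counts.

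The analysis used edgeR 4.0.16 (R 4.3.3) with filterByExpr by group, TMM scaling, 1 mean per group and quasi-likelihood tests on all 12 libraries, with Benjamini-Hochberg adjustment (FDR) over 14608 genes. Calls needed both an FDR below 0.05 and a 2-fold difference. P-values measure the spread between mice. Intervals are at 95%. Alternatives were DESeq2 1.42.0, limma-voom (limma 3.58.1), the likelihood ratio test, other scaling and filters, fits of the compared groups, a replicate block, the inferred library set and each library left out in turn. The alternatives for the medians of the lists were added after the medians had been seen. The code was tested on simulated data. Gene bounds and exon lengths came from GENCODE M21 (GRCm38) and promoters from RefSeq (GRCm38.p6), with Nfkb1, Relb and Nfkbiz not analysed there. Figures were drawn with matplotlib 3.10.9.

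Members, gene lists and tests were chosen with earlier results of these data known. All 10 members are named, and of each other list any called gene, or otherwise the 2 with the lowest unadjusted p against Ct, besides the 5 genes most like Nfkbia and Tnfaip3. 1 marker gene was left out of its list. Tnf, Birc2, Ltb, Il1b, Tnfrsf13c, Tlr4 and the lists' example genes fall outside this rule.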

Additional observations from a re-analysis of the deposited data

Results flagged for a closer look

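Each of the 10 members was checked in each of the 3 groups for a mouse that stood far from the other 3, by Dixon's criterion, which chance meets in about 1 in 20 groups. Of 30 such checks 2 met it. Bcl3 was at 88.6 CPM in HF mouse 1, against 58.3 to 58.8 CPM in the other 3 HF mice, and this is the library with the fewest genes detected (13600). Tnfaip3 was at 312.6 CPM in HF mouse 2, against 211.4 to 219.5 CPM in the other 3.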

How the results depend on the processing

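No member met both call thresholds under any alternative run. With an unadjusted p under 0.05 as the only threshold the counts were 4 for ECH against Ct, 4 for HF against Ct and 1 for HF against ECH. The count at this p was 2 by limma-voom for HF against Ct. With the library set as a covariate it was 0 for ECH against Ct, 1 for HF against Ct and 2 for HF against ECH, within set A it was 0 for ECH against Ct, and within set B it was 2 for HF against ECH. Without Ct library 2 and HF library 1 it was 2 for HF against Ct. When each library was left out in turn it ranged from 1 to 5 for ECH against Ct, from 2 to 5 for HF against Ct, and was 1 in every such fit for HF against ECH. Within set A and set B fewer samples were tested. The cause of the other differences was not tested. RLE scaling moved the median log2 fold change of all genes by less than 0.01.

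The replicate numbers of the labels did not pair the mice: over 12 pairs of same-numbered libraries of 2 groups the correlation of deviations from the group means ran from -0.07 to 0.07, with 0 pairs over 0.1. With the replicate block the counts of members at an unadjusted p under 0.05 were 6, 4 and 1, and the calls over all genes went from 52 to 22 for ECH against Ct and from 55 to 18 for HF against Ct.

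Calls over all genes depended on the test: DESeq2 gave 248, 337 and 47 for ECH against Ct, HF against Ct and HF against ECH, the likelihood ratio test 218, 273 and 48, and limma-voom 84, 130 and 0. With the set as a covariate they were 22, 208 and 272, within set A 1 and within set B 370. A fit of only the compared groups gave 8 for ECH against Ct. With each library left out in turn they ran from 11 (without Ct mouse 1) to 95 (without Ct mouse 3) for ECH against Ct and from 15 to 103 without the same mice for HF against Ct. Cd40, lower in HF than in Ct, was called under 16 of 22 alternatives, with an FDR of 0.0540 under the replicate block and 0.0757 without Ct library 2 and HF library 1, and the alternatives for this gene were chosen after its call was seen.

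Of 680 log2 fold changes of members under the alternatives, 53 changed sign. With the set as a covariate the log2 fold changes that turned were Nfkb2 0.16, Rela 0.049, Birc3 -0.038 for ECH against Ct and Relb 0.29, Nfkbiz 0.84 for HF against Ct and Rel 0.13, Nfkbia 0.20, Bcl3 0.067, Tnfaip3 0.34 for HF against ECH. Within set A the log2 fold changes that turned were Nfkb2 0.15, Rela 0.040, Birc3 -0.044 for ECH against Ct. Within set B the log2 fold changes that turned were Rel 0.13, Nfkbia 0.20, Bcl3 0.069, Tnfaip3 0.34 for HF against ECH. By limma-voom the log2 fold changes that turned were Rela -0.066, Bcl3 -0.029 for HF against Ct and Rela -0.0065 for HF against ECH. With the filter at 1 CPM the log2 fold changes that turned were Rela -0.0065 for HF against Ct. Without Ct library 2 and HF library 1 the log2 fold changes that turned were Rela -0.082, Bcl3 -0.059 for HF against Ct and Rela -0.012, Tnfaip3 0.0091 for HF against ECH. With each library left out in turn, the values that turned in at least 1 fit were the following. ECH against Ct ran from -0.16 to 0.072 for Nfkb2 and from -0.074 to 0.046 for Rela. HF against Ct ran from -0.036 to 0.26 for Nfkb2 and from -0.046 to 0.060 for Rela. HF against ECH ran from -0.15 to 0.18 for Nfkbia, from -0.28 to 0.015 for Bcl3, from -0.20 to 0.14 for Tnfaip3, from -0.034 to 0.080 for Rela and from -0.20 to 0.54 for Nfkbiz.

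HF and Ct have no set in common, so no fit within a set was made for them. At least 2012 counts stand behind the level of each member in each library, so that the spread among 4 mice per group sets the precision.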
